A study of Homo sapiens with 2 samples.

Results

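Integrins and laminins are the cell surface receptors and the matrix ligands by which epithelial cells hold on to the basement membrane. Their genes were taken here as full families, by symbol. Every row of the deposited count table with the symbol of an integrin alpha subunit (ITGA), an integrin beta subunit (ITGB) or a laminin alpha, beta or gamma chain (LAMA, LAMB, LAMC) was used. This gave 38 genes, 26 integrin and 12 laminin genes, of 18944 in the table. The rule reads symbols only, but the families were chosen with earlier results of these data known. The samples were the resistant line, a derivative of H1993 cells selected in the MET kinase inhibitor PHA665752, and the parental H1993 line, a MET-amplified human lung adenocarcinoma line. Per the labels, selection ran from 1 nM up to 1 µM, the derivative was kept at 1 µM, and drug was left out for 1 week before experiments. The treatment labels read PHA665752 for the resistant library and DMSO for the parental one, and whether drug was present at harvest is not stated. Both lines grew in RPMI-1640 with 10% fetal bovine serum, and the labels do not say whether the derivative is a clone or a pool.

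Each group had 1 library, of 17086748 counts in the resistant and 16723181 counts in the parental line. No replicate measures the spread between cultures, so there is no test and no p-value below, and each statement describes these 2 libraries. Counts were scaled to CPM, a count corrected for library size, with sizes from edgeR's trimmed mean of M-values. Genes reaching 1 CPM in either library were tested. The log2 ratio is that of the resistant to the parental level, after 0.5 counts were added to both. A difference was called when this ratio was 1 or more in size (2-fold) with 0 outside its exact 95% interval. Intervals cover counting error only. All 6 epithelial markers examined (EPCAM, KRT7, KRT8, KRT18, KRT19 and CDH1) had at least 1 CPM in both libraries. EPCAM was called lower, at 164 CPM in the resistant and 389 CPM in the parental library. The other 5 were not called, with log2 ratios of -0.69 for CDH1, -0.63 for KRT19, 0.05 for KRT7, 0.33 for KRT18 and 0.35 for KRT8. Of 5 lung lineage markers only NKX2-1 reached 1 CPM, at 5.95 CPM in the resistant and 4.16 CPM in the parental library, and it was not called. Fibroblast, leukocyte and platelet markers summed to 15.0, 2.77 and 0.53 CPM in the resistant library, and to 20.8, 1.96 and 0.832 CPM in the parental one. Endothelial markers summed to 29.3 CPM in the resistant and 0.535 CPM in the parental library, of which CDH5 alone made up 29.2 CPM and 0.297 CPM, while PECAM1, VWF, KDR and CLDN5 had at most 3 counts in either library. A part of these marker differences or of other cells in the results below was not tested, and fewer cells with a transcript cannot be told apart from less of it per cell.

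An integrin is a pair of 1 alpha and 1 beta subunit that spans the membrane. The alpha subunit largely sets which matrix protein is bound, while the beta tail binds talin and kindlin, which switch the receptor on and tie it to actin. A laminin is a cross-shaped trimer of 1 alpha, 1 beta and 1 gamma chain, and the trimer is named by the numbers of its chains. In lung epithelium laminin with an alpha3 chain anchors cells through integrin alpha6beta4 in hemidesmosomes, and integrin alphavbeta6 activates latent TGF-beta.

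Of the 24 members that could be tested, 12 were called, of which 5 were higher (20.8%) and 7 lower (29.2%) in the resistant library. Over all 12245 tested genes, 20.4% were called, 12.1% higher and 8.29% lower. Among the 5 higher members, 3 (ITGA2B, LAMA1 and LAMC3) stayed below 1 CPM in the parental library and were tested only through the resistant one, and 1 of the 7 lower members (ITGB6) was below 1 CPM in the resistant library. For these 4 the filter fixed the direction, though not the size. With the whole interval beyond 2-fold, 5 members were higher and 5 lower, against 8.96% and 5.35% of all tested genes. At 4-fold, 4 were higher and 3 lower, against 6.32% and 2.93% (9.25% either way). A difference of 1 in the log2 values as deposited gave 3 members higher and 6 lower, against 7.56% and 4.83% (12.4% either way).

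The median log2 ratio was -0.49 over the 24 tested members, against 0.00 over all tested genes. Ratios were above 0 for 11 members and below 0 for 13. This median falls between ITGB1 (-0.17) and ITGA2 (-0.80), with no member between them. The median was -0.85 without a filter and -0.83 with a filter of 5 CPM. By family, it was -0.86 over the 13 tested integrin genes and 0.33 over the 11 tested laminin genes. The other 14 members did not reach 1 CPM, and 4 of them (ITGA9, ITGA11, ITGAL and ITGB3) had 0 counts in both libraries.

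**Figure D1:**
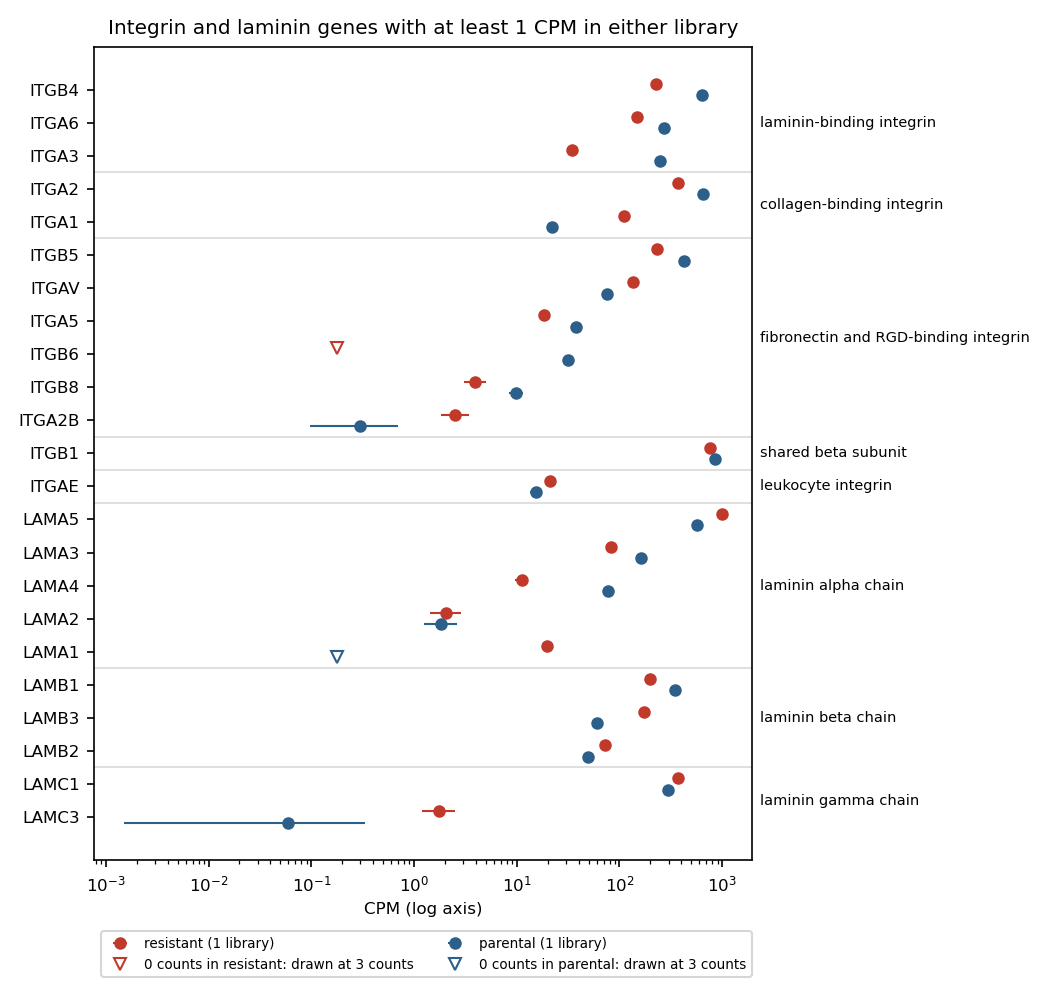
CPM of the tested integrin and laminin genes described here on a log axis, in the resistant (red) and the parental library (blue), grouped by role. Bars are exact 95% Poisson intervals of the count, and open triangles mark 0 counts, drawn at 3 counts: ITGB6 in the resistant and LAMA1 in the parental library.

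Promoters of 3 members are shown here: ITGB6, which had no count in the resistant library, and LAMA3 and LAMB3, chains of 1 laminin with ratios of opposite sign. Each runs from 250 bases before to 50 bases after a RefSeq start (GRCh38.p14), 5′ to 3′ on the gene's strand. They lie at chr2:160200223-160200522 on the minus strand (ITGB6), chr18:23872770-23873069 on the plus strand (LAMA3) and chr1:209651325-209651624 on the minus strand (LAMB3, the most downstream of its 3 listed starts). Capitals mark matches, on either strand, to 4 motifs: AP-1 (TGANTCA), the E-box bound by SNAI and ZEB factors (CACCTG), TEAD (GGAATG) and SP1 (GGGCGG).
ITGB6: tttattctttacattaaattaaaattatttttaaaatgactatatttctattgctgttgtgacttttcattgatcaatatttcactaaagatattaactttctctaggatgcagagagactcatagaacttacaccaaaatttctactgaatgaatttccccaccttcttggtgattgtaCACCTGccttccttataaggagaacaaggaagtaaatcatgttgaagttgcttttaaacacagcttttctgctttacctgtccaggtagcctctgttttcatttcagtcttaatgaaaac
LAMA3: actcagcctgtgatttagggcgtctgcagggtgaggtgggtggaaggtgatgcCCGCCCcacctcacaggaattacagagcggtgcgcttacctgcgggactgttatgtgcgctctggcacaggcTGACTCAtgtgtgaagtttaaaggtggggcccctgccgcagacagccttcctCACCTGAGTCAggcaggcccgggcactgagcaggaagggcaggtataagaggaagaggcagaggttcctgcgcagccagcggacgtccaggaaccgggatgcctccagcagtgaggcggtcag
LAMB3: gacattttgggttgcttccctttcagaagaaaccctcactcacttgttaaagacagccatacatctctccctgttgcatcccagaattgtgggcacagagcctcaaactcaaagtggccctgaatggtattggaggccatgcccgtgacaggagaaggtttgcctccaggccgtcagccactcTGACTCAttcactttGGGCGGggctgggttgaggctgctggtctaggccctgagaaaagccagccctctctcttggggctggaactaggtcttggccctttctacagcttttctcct
The ITGB6 promoter held 1 E-box and was 31.7% G and C, against a median of 58.7% over all 35116 RefSeq promoters of the same length (quartiles 47.0 and 68.0%). LAMA3 held 2 AP-1 matches, the second overlapping its E-box, and 1 SP1 match. The LAMB3 window shown held 1 AP-1 and 1 SP1 match. The other LAMB3 windows, from 209652280 and 209652376, held 0 AP-1 matches and 1 SP1 match each, and the latter held 1 E-box. Of all promoters, 7.71% held the AP-1 motif, 20.6% the E-box, 14.0% the TEAD motif and 45.0% the SP1 motif. RefSeq promoters were found for 26 members, with 33 starts, and for 7 of the 12 called members. The 5 starts of higher members come from ITGA1, ITGA2B and LAMB3, with 3 of them from LAMB3. Of the 5, 1 held an AP-1 motif and 1 an E-box, both at LAMB3. Among the 4 starts of lower members the counts were again 1 and 1. A match describes the letters only, and binding was not measured.

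Each of the 3 tested laminin-binding integrin genes had a ratio below 0, and 2 of them were called lower. ITGA3, on chromosome 17, encodes the alpha3 subunit, the main receptor partner of beta1 for laminins with alpha3 and alpha5 chains. It had 588 counts (34.6 CPM) in the resistant and 4178 counts (248 CPM) in the parental library, 7.16-fold lower (95% counting interval 6.57 to 7.82). Only 1.67% of all tested genes had a lower ratio. ITGB4, the beta4 subunit of hemidesmosomes, whose long tail binds plectin, was at 228 CPM in the resistant and 638 CPM in the parental library, 2.80-fold lower (2.70 to 2.91). Its sole partner, ITGA6, was at 149 CPM in the resistant and 270.1 CPM in the parental library, 1.82-fold lower (1.73 to 1.91), short of the 2-fold rule. ITGA7, the muscle-type laminin receptor subunit, had 2 counts in the resistant and 13 in the parental library and was not tested.

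The collagen-binding alpha subunits had ratios of opposite sign, and 1 of the 2 tested was called, although ITGA1 and ITGA2 lie close together on chromosome 5, with only PELO starting between their starts. ITGA1, the alpha1 subunit, was at 112 CPM in the resistant and 22.0 CPM in the parental library, 5.07-fold higher (4.53 to 5.68). ITGA2, the alpha2 subunit, was at 368 CPM in the resistant and 643 CPM in the parental library, 1.75-fold lower (1.69 to 1.80), which missed the rule. PELO shares 475 exonic bases with ITGA1 on the same strand in GENCODE release 29, so reads there could count for either gene. It was at 105 CPM in the resistant and 74.4 CPM in the parental library, a log2 ratio of 0.50, well under the 2.34 of ITGA1. ITGA10, with 0 counts in the resistant and 3 in the parental library, and ITGA11, with none, were not tested.

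Integrins that bind the RGD sequence of fibronectin, vitronectin and latent TGF-beta pair alphav with beta1, beta3, beta5, beta6 or beta8. Of the 6 tested genes of the RGD and fibronectin group, 1 was called higher and 3 lower. ITGB6 had 0 counts in the resistant and 529 counts (31.4 CPM) in the parental library. With 0 counts allowing up to 3 (0.177 CPM), it was at least 178-fold lower. Of the 42 tested genes with 0 counts in the resistant library, ITGB6 had the second highest count in the parental one. ITGB8, which also activates TGF-beta, was at 3.95 CPM in the resistant and 9.80 CPM in the parental library, 2.48-fold lower (1.86 to 3.35). It lost its call with the whole interval beyond 2-fold and with the deposited log2 values (-0.54). Its deposited value was only 1.07 in the parental library, so a difference of 1 needed a value near 0 in the resistant one. ITGB5, the vitronectin receptor subunit, was at 231 CPM in the resistant and 426 CPM in the parental library, 1.84-fold lower (1.77 to 1.91), short of the rule. ITGAV, their shared alpha partner, ran the other way, at 137 CPM in the resistant and 75.03 CPM in the parental library, 1.82-fold higher (1.70 to 1.95), also short of the rule. The ratio was thus below 0 for ITGB5, ITGB6 and ITGB8 and above 0 for the alpha subunit they share. ITGB1, the other detected beta partner of ITGAV, had a log2 ratio of -0.17.

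ITGA5, the fibronectin receptor subunit, was at 18.4 CPM in the resistant and 37.7 CPM in the parental library, 2.04-fold lower (1.78 to 2.35). It lay just inside the rule, at a log2 ratio of -1.03, and the nearest member just outside was LAMA3 at -0.95. ITGA5 was not called with the whole interval beyond 2-fold, nor with the deposited log2 values. ITGA2B, the platelet subunit, had 43 counts in the resistant and 5 in the parental library, 8.53-fold higher (3.39 to 27.6), and reached only 2.53 CPM. Its deposited log2 values were 0.83 in the resistant and 0.13 in the parental library, a difference of 0.71. Both lie under 1, so a call by a difference of 1 was not possible. ITGB3, the platelet partner of ITGA2B, had 0 counts in both libraries. ITGB1, the beta subunit shared by most alpha chains, was at 760.3 CPM in the resistant and 853 CPM in the parental library, 1.12-fold lower (1.10 to 1.15), and was not called. It therefore differed less than any of the 12 other tested integrin genes.

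Integrins of white blood cells were scarce. Of 7 such genes only ITGAE, which binds E-cadherin, was tested, at 21.3 CPM in the resistant and 15.3 CPM in the parental library, 1.39-fold higher (1.18 to 1.63) and not called. ITGB2, the beta2 subunit of leukocytes, had 16 counts in the resistant and 5 in the parental library, just under the 1 CPM filter. ITGB7, the partner of ITGAE, had 1 count in the resistant and 9 counts in the parental library. ITGAM, ITGAX and ITGAD had at most 2 counts in either library and ITGAL none. Of the alpha4 and alpha9 subunits, which bind VCAM1 and tenascin, ITGA4 had 1 count in the resistant library and ITGA9 none. ITGA8, an RGD-binding subunit, had 1 count in the parental library.

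**Figure D2:**
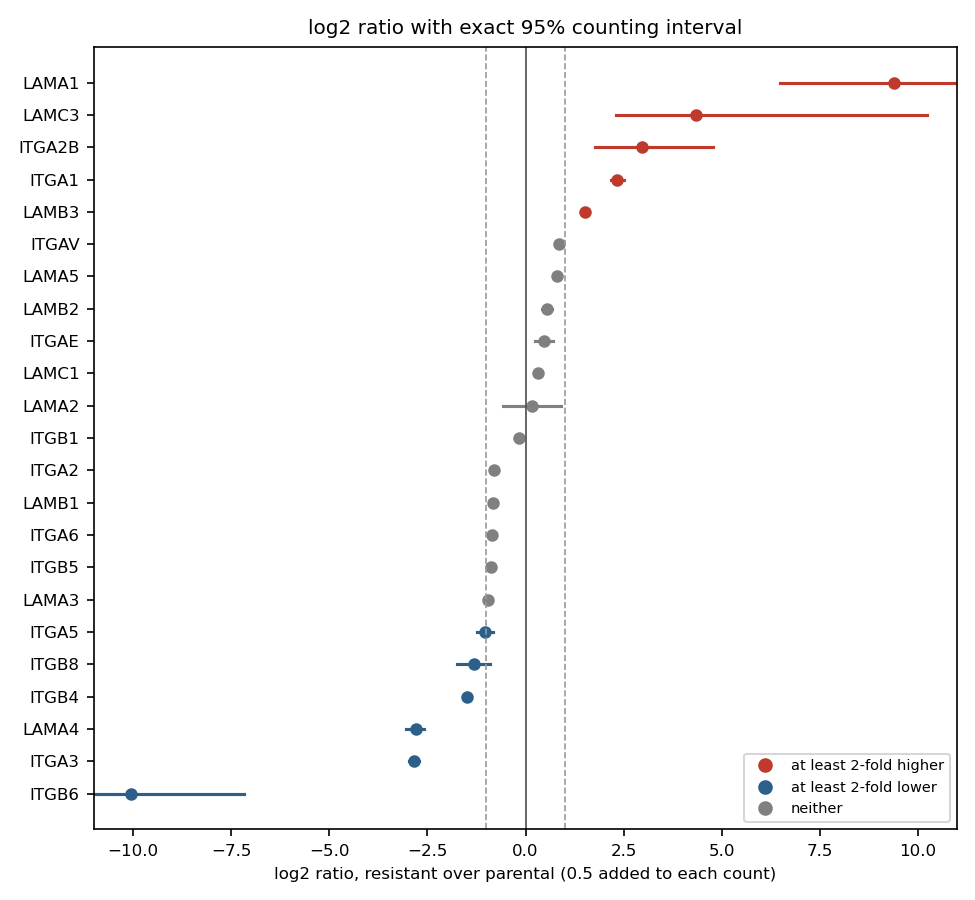
log2 ratio, resistant over parental, of the tested members described here with exact 95% counting intervals, sorted by ratio, with dashed lines at 2-fold. Red points were called higher, blue ones lower and grey ones neither way, and the intervals of LAMA1 and ITGB6, at 0 counts in 1 library, run off the axis, so that the points of those genes depend on the added 0.5 counts.

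Laminin alpha chains carry the domains that integrins bind, and 2 of the 5 were called, in opposite directions. LAMA1, the alpha1 chain of early embryonic basement membranes, had 336 counts (19.8 CPM) in the resistant and 0 counts in the parental library, at least 111.1-fold higher. Among the 139 tested genes with 0 counts in the parental library it ranked 21 by its count in the resistant one. LAMA4, the alpha4 chain known from vessel walls and mesenchyme, had 189 counts (11.1 CPM) in the resistant and 1313 counts (78.0 CPM) in the parental library, 6.99-fold lower (6.01 to 8.20). LAMA5, the broad epithelial alpha5 chain, was at 985 CPM in the resistant and 566 CPM in the parental library, 1.74-fold higher (1.70 to 1.78), short of the rule. LAMA3, the alpha3 chain of hemidesmosomal laminin, was at 83.1 CPM in the resistant and 161 CPM in the parental library, 1.94-fold lower (1.82 to 2.07), also short. LAMA2, the muscle and nerve chain, had 35 counts in the resistant and 31 in the parental library, a difference within counting error (log2 ratio 0.16, interval -0.58 to 0.91).

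Of the 3 tested laminin beta chain genes 1 was called higher. LAMB3, the beta3 chain found with alpha3, was at 175 CPM in the resistant and 60.8 CPM in the parental library, 2.87-fold higher (2.67 to 3.09). Its log2 ratio was 1.52, against -0.95 for LAMA3. LAMC1, on chromosome 1, the gamma chain of most laminins, was at 374 CPM in the resistant and 298 CPM in the parental library, 1.25-fold higher (1.21 to 1.30), not called. LAMB1, the common beta1 chain, was at 196 CPM in the resistant and 349 CPM in the parental library, 1.78-fold lower (1.70 to 1.85). LAMB2, the beta2 chain that can take its place, was at 72.5 CPM in the resistant and 49.5 CPM in the parental library, 1.46-fold higher (1.34 to 1.60). Neither passed the rule. LAMC3, the gamma3 chain, had 30 counts in the resistant and 1 in the parental library, 29.8-fold higher (4.95 to 1214), and stayed at 1.77 CPM. Its deposited log2 values were 0.37 in the resistant and 0.01 in the parental library, a difference of 0.35. Both lie under 1, so a call by a difference of 1 was not possible. LAMB4 had 0 counts in the resistant and 2 in the parental library and was not tested.

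Levels of different genes can be compared only per unit of length. The deposited log2 values allow this, because they behave as the log2 of a level per length with 1 added. Dividing each gene's CPM by that level gave an implied transcript length. In the parental library it was within 20% of the longest GENCODE release 29 coding transcript for 16 of 18 members with at least 100 counts in both libraries, and for 73.1% of 9317 such genes. The method is not stated by the authors, so the per-length levels below are a reading of their values. With them, the summed level of the 18 alpha subunits was 132 in the resistant and 205.5 in the parental library, and that of the 8 beta subunits was 294 in the resistant and 442 in the parental library.

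Among alpha subunits, ITGA2 held the greatest share in both libraries, 34.9% in the resistant and 39.3% in the parental one. ITGA3 made up 5.23% in the resistant and 24.1% in the parental library, and ITGA6 19.4% in the resistant and 22.7% in the parental library. ITGA1 reached 17.7% in the resistant library, against 2.25% in the parental one, and ITGAV 14.5% in the resistant library, against 5.15% in the parental one. The implied length of ITGA1 was 4.74 kb in the resistant and 4.80 kb in the parental library, where its longest coding transcript has 10.8 kb. With that longer length the ITGA1 share would be 8.62% in the resistant and 0.994% in the parental library. Among beta subunits, ITGB1 made up 68.0% in the resistant and 50.7% in the parental library. ITGB5 held 18.2% in the resistant and 22.2% in the parental library, and ITGB4 13.5% in the resistant and 25.2% in the parental library. Among the beta3, beta5, beta6 and beta8 genes, ITGB5 held 99.2% in the resistant and 92.6% in the parental library, and ITGB6 0% in the resistant and 6.39% in the parental library.

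LAMA5 made up 84.3% of the alpha chain level in the resistant and 55.8% in the parental library. The LAMA3 share was 11.9% in the resistant and 28.8% in the parental library, that of LAMA4 1.64% in the resistant and 15.2% in the parental library, and that of LAMA1 2.01% in the resistant and 0% in the parental library. With the longest coding transcripts, LAMA3 stood at 7.95% in the resistant and 19.7% in the parental library. LAMB3 held the greatest share of the beta chain level in the resistant library, 48.6% against 18.2% in the parental one, and LAMB1 that in the parental library, with 37.5% in the resistant and 71.6% in the parental library. Protein amounts and trimer assembly were not measured.

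**Figure D3:**
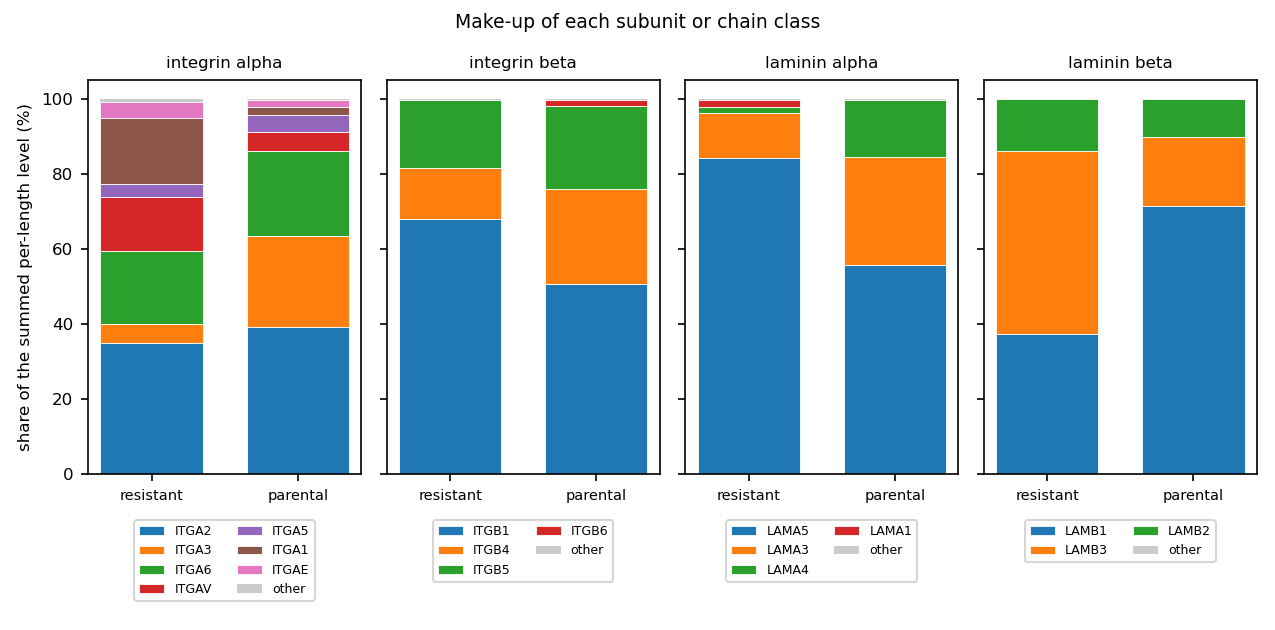
Share of each gene in the summed per-length level of its class (%), in the resistant (left bar) and the parental library (right bar). ITGA1, ITGAV, ITGB1, LAMA5 and LAMB3 take a greater share in the resistant library, and ITGA3, ITGB4, LAMA3, LAMA4 and LAMB1 a smaller one.

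Of 24 known integrin pairs, 10 had both subunits tested. In each pair with ITGB1, and in those of ITGA6 with ITGB4 and ITGAV with ITGB5, the alpha gene had the lower per-length level in both libraries. In the pairs of ITGAV with ITGB6 and with ITGB8, the beta gene did. The lower of the alpha3beta1 levels, that of ITGA3, was 6.92 in the resistant and 49.5 in the parental library, and that of alpha1beta1, ITGA1, was 23.4 in the resistant and 4.62 in the parental library. All 7 laminin trimers considered had every chain tested. For laminin-411 the chain gene with the lowest per-length level was LAMA4 in both libraries, at 1.64 in the resistant and 13.3 in the parental library. The chains of laminin-521 (LAMA5, LAMB2 and LAMC1) had log2 ratios between 0.33 and 0.80, the narrowest span of the 7 trimers.

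LAMA3 and LAMA4 stood apart in a second reading of the deposited values. The implied transcript length should be the same in both libraries for a gene with the same transcript make-up. After removing the median difference, it shifted by at least 0.1 log2 units for 182 of 9483 genes with at least 100 counts in both libraries (1.92%). LAMA3 and LAMA4 were the 2 members to do so, and the other 16 shifted by at most 0.0045. LAMA3 had an implied length of 6.95 kb in the resistant and 6.47 kb in the parental library, a shift of 0.12. Its GENCODE coding transcripts fall into a long pair of 10.7 and 9.83 kb, which starts upstream, and a short pair of 5.67 and 5.01 kb, whose starts (positions 23872840 and 23873045) lie within the LAMA3 promoter window shown above. LAMA4 had an implied length of 6.74 kb in the resistant and 5.92 kb in the parental library, a shift of 0.21, at only 189 counts in the resistant library. Reads of single transcripts were not analysed here. With the deposited log2 values LAMA3 differed by -1.02 and would be called lower.

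The partners of integrins and laminins were counted in 7 further lists, chosen with earlier results of these data known. They are to be read against the 12.1% higher and 8.29% lower, 20.4% in all, among all tested genes. Integrin activators and adaptors had 6 of 32 tested members higher and 0 lower, with a median log2 ratio of 0.22. Of the 6, 3 were under 1 CPM in the parental library, so that the filter fixed their direction. The 18.8% called is near the 20.4% of all tested genes. DAB2, an endocytic adaptor for beta1 integrins, was at 17.1 CPM in the resistant and 0.238 CPM in the parental library, 71.9-fold higher (27.8 to 266). NEDD9, a scaffold downstream of focal adhesion kinase, was at 98.3 CPM in the resistant and 5.41 CPM in the parental library, 18.2-fold higher (14.7 to 22.7), and the paxillin relative TGFB1I1 had 138 counts in the resistant and 5 in the parental library. The kindlin gene FERMT2 was at 190.3 CPM in the resistant and 79.1 CPM in the parental library, 2.41-fold higher, while the epithelial kindlin gene FERMT1 had a log2 ratio of -0.73 and was not called. The core members TLN1 (0.30), ILK (0.29), PTK2 (0.34), VCL (-0.49) and FLNA (-0.17) had log2 ratios within 2-fold. PXN, at -0.98, lay just short of the rule.

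Hemidesmosome partners beside the integrin and laminin genes themselves had 0 of 4 tested members called, with PLEC at 0.37, CD151 at -0.02, DST at -0.27 and COL17A1 at -0.40. KRT5 and KRT14 had 0 counts in both libraries. Other laminin receptors had 1 of 14 higher and 1 lower, 14.3% called against 20.4% of all tested genes, with a median of 0.11. The higher one was BCAM, the Lutheran receptor for alpha5 laminins, at 8.60 CPM in the resistant and 1.19 CPM in the parental library, 7.24-fold higher (4.52 to 12.2). The syndecan gene SDC3 was the lower one, at 12.4 CPM in the resistant and 34.6 CPM in the parental library. The dystroglycan gene DAG1 (-0.35) and RPSA (0.60) were not called. RPSA has many processed pseudogenes, so its counts are uncertain.

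Other basement membrane genes had 6 of 17 tested members higher (35.3%, against 12.1%) and 3 lower (17.6%, against 8.29%), with a median of 0.59. Of the 6, 1 was under 1 CPM in the parental library, so that the filter fixed its direction. This was FRAS1, with 20 counts in the resistant and 1 in the parental library. NID2, a nidogen that links laminin to collagen IV, was at 305 CPM in the resistant and 8.02 CPM in the parental library, 38.0-fold higher (32.1 to 45.5), while its relative NID1 had 0 counts in both. COL18A1 was 9.09-fold higher (8.20 to 10.1) and reached 217 CPM, and FBLN2 was 9.11-fold higher (6.51 to 13.1). Collagen IV chains split. COL4A5 and COL4A6 had log2 ratios of 1.65 and 1.89, and COL4A1 and COL4A3 had -1.72 and -1.13, with COL4A2 (0.08) and COL4A4 (-0.23) not called. The perlecan gene HSPG2 was at 0.94 and the agrin gene AGRN at -0.20, neither called, and FREM2 was the remaining lower gene at -1.08.

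Integrin ligands other than laminins had 14 of 23 tested members higher (60.9%, against 12.1%) and 2 lower (8.70%, against 8.29%). Their median log2 ratio was 1.39. Of the 14, 5 were under 1 CPM in the parental library, so that the filter fixed their direction. SPP1, the osteopontin gene, had 677 counts in the resistant and 3 in the parental library, 224-fold higher (76.3 to 1088). VTN, the vitronectin gene, was at 35.6 CPM in the resistant and 0.297 CPM in the parental library, 119.8-fold higher (51.1 to 370.3), and NOV 24.4-fold higher (16.0 to 39.3). FBN1 and FBN2, the fibrillin genes, had log2 ratios of 3.30 and 2.45. The fibronectin gene FN1 was at 517 CPM in the resistant and 256 CPM in the parental library, 2.02-fold higher and barely inside the rule, and was not called when scaled by total counts. TNC, a matrix ligand of several integrins, was 4.01-fold lower (3.87 to 4.16), and LTBP3, which holds latent TGF-beta, 2.25-fold lower (2.13 to 2.38).

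Membrane proteins that associate with integrins had 3 of 13 members higher and 3 lower (23.1% each, against 12.1% and 8.29% of all tested genes), with a median of -0.09. The tetraspanin gene CD9 was at 26.3 CPM in the resistant and 91.8 CPM in the parental library, 3.49-fold lower (3.14 to 3.89), and TSPAN15 was 2.53-fold lower (2.32 to 2.77). CAV1, the caveolin gene, was 3.16-fold lower. The higher ones were TSPAN4 (2.41-fold), SLC3A2 (2.28-fold) and CD82 (2.54-fold). Enzymes that process laminins and integrins had 1 of 12 tested members higher (8.33%, against 12.1%) and 2 lower (16.7%, against 8.29%), with a median of -0.33. PDIA4, the one with the most counts, was at -0.27 and not called. TLL1, a protease of the BMP1 type, was at 33.2 CPM in the resistant and 0.416 CPM in the parental library, 79.9-fold higher (38.5 to 199.7). PCSK5, a proprotein convertase able to cut integrin alpha subunits, was at 0 CPM in the resistant and 6.59 CPM in the parental library, at least 37.3-fold lower. ST6GAL1, which sialylates beta1 integrin, was 2.28-fold lower (1.47 to 3.60). The filter fixed the direction of TLL1 and PCSK5, each under 1 CPM in 1 library.

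**Figure D4:**
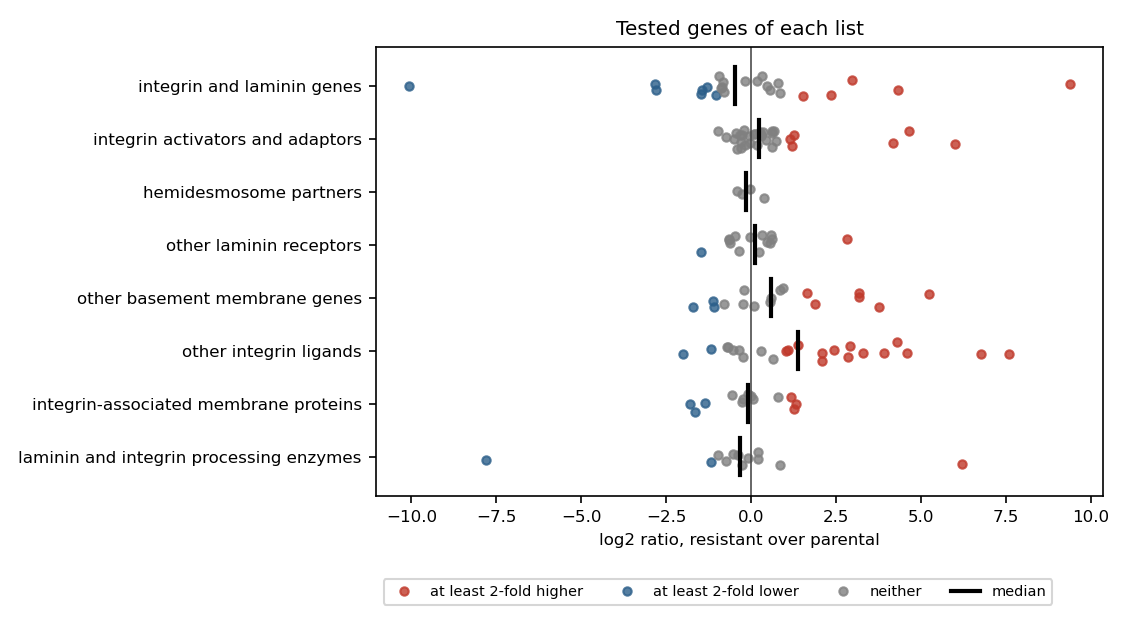
log2 ratio, resistant over parental, of every tested gene in the integrin and laminin families and in 7 lists of partners, with the median of each as a black bar. Points are red where called higher, blue where called lower and grey otherwise, genes with 0 counts in 1 library (ITGB6, LAMA1 and PCSK5) sit where the added 0.5 counts put them, and the medians run from -0.49 for the integrin and laminin genes to 1.39 for the other integrin ligands.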

How the data were processed

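RNA was sequenced from 1 resistant and 1 parental library, made with a TruSeq kit per the labels' protocols. FastQC and STAR are named, with no version, in the submitters' processing notes, which list both GRCh38 and hg19, so no gene coordinates are taken from the files. The counting program, annotation and strand setting are not given in the sources used here. The authors deposited raw counts per gene symbol and normalized log2 values whose method is not stated, per the file headers. The column header of the resistant library, PR_S2, lacks the first letter of its label, HPR_S2.

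Effective library sizes were computed with edgeR 4.0.16 in R 4.3.3, 16974207 for the resistant and 16834058 for the parental library. Ratio intervals are conditional binomial (Clopper-Pearson) and level intervals Poisson, at 95%, from scipy 1.17.1. Reads are not independent molecules, so all of them cover counting error only. The code was tested on simulated data. A count of 0 allows 3 counts, 0.177 CPM in the resistant and 0.178 CPM in the parental library. Size factors of DESeq2 1.42.0 served as an alternative scaling. The deposited log2 values served as another, and for per-length levels (2 to the power of the value, minus 1). Gene names, synonyms and promoters came from RefSeq (GRCh38.p14), transcripts from GENCODE release 29.

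All 38 members are counted, 1 of which is not reported here by itself, and of each partner list the rule names the member with the highest mean CPM and up to 3 higher and 3 lower genes whose interval lies farthest from 0. Other partners are named after their values were seen. Of the listed partners, 3 found no row. The members and lists were chosen with earlier results of these data known.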

Additional observations from a re-analysis of the deposited data

How the results depend on the processing

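Every value rests on 1 library per group, so variation between cultures is unknown, and depth limits the members under about 50 counts (ITGA2B, LAMA2 and LAMC3). No paired analysis was possible because each group has 1 library. DESeq2 size factors, total counts and 2 added counts changed the call of 0 members. Under a filter of 5 CPM, ITGA2B and LAMC3 dropped out and 3 members were higher, as many as by the deposited log2 values. By those values ITGA2B and LAMC3 could not be called, as both genes were under 1 in both libraries. At 4-fold 3 members were lower (ITGA3, ITGB6 and LAMA4). ITGB8 was not called with the whole interval beyond 2-fold, at 4-fold, or with the deposited log2 values, where its parental value of 1.07 left little room for a call. The median of the tested members was -0.85 without a filter, -0.83 with the 5 CPM filter and -0.35 by the deposited log2 values. Without a filter ITGA7 and ITGB7 would be called lower and ITGB2 higher. The filters and thresholds leave a member's ratio as it is, and scaling shifts every gene alike, so that only the added counts and the deposited log2 values could move members apart. By the deposited log2 values, 8 members left their counting interval, and 0 changed sign against a call.

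Over all tested genes, 4-fold gave 774 higher and 359 lower, the deposited log2 values 926 and 591, and the whole interval beyond 2-fold 655 lower. At 4-fold, 3 adaptors were higher, 0 laminin receptors and 0 basement membrane genes lower, 1 integrin ligand lower, 0 associated membrane proteins higher or lower, and 1 processing enzyme lower. With total counts 1 adaptor, PXN, was lower, and FN1 lost its call, leaving 13 integrin ligands higher. Basement membrane genes had 1 lower, and processing enzymes 1 lower, both with the whole interval beyond 2-fold and with the deposited log2 values. Processing enzymes had 1 lower under the 5 CPM filter. Causes were not tested. Per-length shares under the longest coding transcripts were added after seeing the data.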

Other observations

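The protein-coding neighbours of the called members, 3 on each side in the RefSeq order, were counted by the same rule, by which 12.1% of all tested genes were higher and 8.29% lower. Around the 5 higher members, 14 neighbours were tested, 1 higher and 2 lower in the resistant library, and around the 7 lower members 27 were tested, 6 higher and 3 lower. Around the 12 members called neither way, 55 were tested, 7 higher and 6 lower. RBMS1, the RNA-binding protein gene next to ITGB6 on chromosome 2, was at 122 CPM in the resistant and 34.8 CPM in the parental library, where ITGB6 itself went the other way. MACC1, next to ITGB8 on chromosome 7 and known as a regulator of MET transcription, was at 18.6 CPM in the resistant and 56.3 CPM in the parental library, a log2 ratio of -1.60 beside -1.31 for ITGB8. On the other side of ITGB8, SP8 and SP4 were called higher, with log2 ratios of 1.87 and 1.30. On chromosome 18, ARHGAP28, next to LAMA1, had 185 counts in the resistant and 0 in the parental library, as LAMA1 had 336 and 0. On the other side of LAMA1, PTPRM (log2 ratio -0.40) and RAB12 (-0.52) were not called. FAM229B and RFPL4B, on either side of LAMA4, had 16 and 2 counts in the resistant and 56 and 28 counts in the parental library. The other tested neighbours of LAMA4 were not called, with log2 ratios of -0.66 for TUBE1, 0.77 for MARCKS and -0.11 for HDAC2. These neighbours were named after their values were seen.

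Exons of other annotated genes overlap several members. ITGB6 shares 966 bases with AC092153.1 on the same strand, LAMA1 shares 431 bases with AP002409.1 and ITGA6 shares 125 bases with ITGA6-AS1, both on the opposite strand. Whether the counting separated such reads is not given in the sources used here.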
